A study of Homo sapiens with 5 samples.

Results

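The cells described here are the mitotic-gene-high cells of MDA-MB-468, an EGFR-amplified triple negative breast cancer line, with and without afatinib, a drug that binds the EGFR and ERBB2 kinases covalently. Members were chosen by the summed counts of 10 genes of dividing cells (MKI67, TOP2A, CDK1, CCNB1, CCNB2, UBE2C, BIRC5, CENPF, NUSAP1 and TPX2) over the total counts of a cell, and the top 25% of each library were taken. This gave 1027 members of 4101 cells. They comprised 120, 236 and 285 cells of the afatinib libraries of day 3, day 6 and day 9 (D3, D6 and D9), against 120 and 266 cells of the untreated day 0 (D0) replicates 1 and 2.

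The study profiled barcoded MDA-MB-468 cells with a 3′ droplet kit that counts transcripts by unique molecular identifiers (UMIs). The afatinib cells were kept in 250 nM afatinib for 3, 6 or 9 days, with 1 library a day, and the untreated cells were taken on day 0 with no drug. All 5 libraries carried lentiviral lineage barcodes with a puromycin resistance marker, and per the study's methods the treated cells were frozen when collected and thawed before capture. The 3 treated days served as replicates of treatment, so a change from day to day counts as spread. Nothing says that the D0 replicates came from separate cultures, and the spread behind each p-value may then be technical.

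A cell that divides copies its DNA in S phase, then makes the proteins of mitosis in G2, and the anaphase-promoting complex marks many of those proteins for destruction as mitosis ends. Transcription of the mitotic genes in G2 is driven by FOXM1 and by the MuvB complex with B-MYB, which bind promoters that often hold a CHR element near the start site. In epithelial cancer lines, EGFR signalling through ERK pushes cells past G1, upstream of all these steps.

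The 15 genes outside the rule that were most concentrated in members were PIF1, AURKA, PLK1, DLGAP5, KIF20A, KPNA2, CENPE, KIF14, FAM83D, INCENP, NEK2, DEPDC1B, KIF18A, DEPDC1 and KIF2C. Their promoters are shown because they share letters that the rule did not use. RefSeq start sites on GRCh38.p14 were found for 13 of the 15, and the 300 bases around each start (250 before, 50 after) were searched on both strands for the CHR letters TTTGAA and for CCAAT, the site of NF-Y. Matches to both overlapped each other in 0 of the 13 promoters and in 1 of the 7 rule-gene promoters searched in the same way. TTTGAA was present in 9 of 13 promoters (69.2%), against 9.59% of 9550 promoters of tested genes, and CCAAT in 11 of 13 (84.6%), against 37.6%. On the gene's own strand within the last 40 bases before the start, TTTGAA was present in 4 of 13 (30.8%), against 0.576%. Of the 10 rule genes, 7 had a promoter in the table, of which 6 held TTTGAA and 7 held CCAAT. The 4 promoters with the element near the start are printed from 80 bases before to 20 bases after the start site, with TTTGAA and CCAAT (or its reverse, ATTGG) in capitals. A match is a run of letters and not a measured site.
PIF1, chr15:64825628-64825727, minus strand: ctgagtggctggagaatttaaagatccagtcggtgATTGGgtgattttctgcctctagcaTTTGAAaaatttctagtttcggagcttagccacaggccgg
PLK1, chr16:23678809-23678908, plus strand: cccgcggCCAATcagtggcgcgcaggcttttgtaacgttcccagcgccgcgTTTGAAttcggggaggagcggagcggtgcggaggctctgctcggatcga
INCENP, chr11:62123931-62124030, plus strand: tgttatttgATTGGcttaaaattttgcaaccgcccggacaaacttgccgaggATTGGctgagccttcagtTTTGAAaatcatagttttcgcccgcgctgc
KIF18A, chr11:28108137-28108236, minus strand: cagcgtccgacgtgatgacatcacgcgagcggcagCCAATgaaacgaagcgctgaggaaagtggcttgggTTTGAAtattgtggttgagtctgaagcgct

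The share of the 10 rule genes ran without a gap from members to other cells, so the members are the upper end of a range and not a separate type. The lowest member held 0.278%, 0.277% and 0.273% of its UMIs in rule genes at D3, D6 and D9, against 0.324% and 0.342% in untreated replicates 1 and 2. The highest cell outside held 0.278%, 0.275% and 0.273% in the afatinib libraries and 0.323% and 0.341% in the untreated libraries. The afatinib threshold therefore lay lower than the untreated one in every library. With the untreated threshold of 0.332% (the mean of both) applied to all libraries, 20.9%, 20.6% and 20.4% of D3, D6 and D9 cells qualified, against 24.3% and 25.7% of untreated cells.

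**Figure D1:**
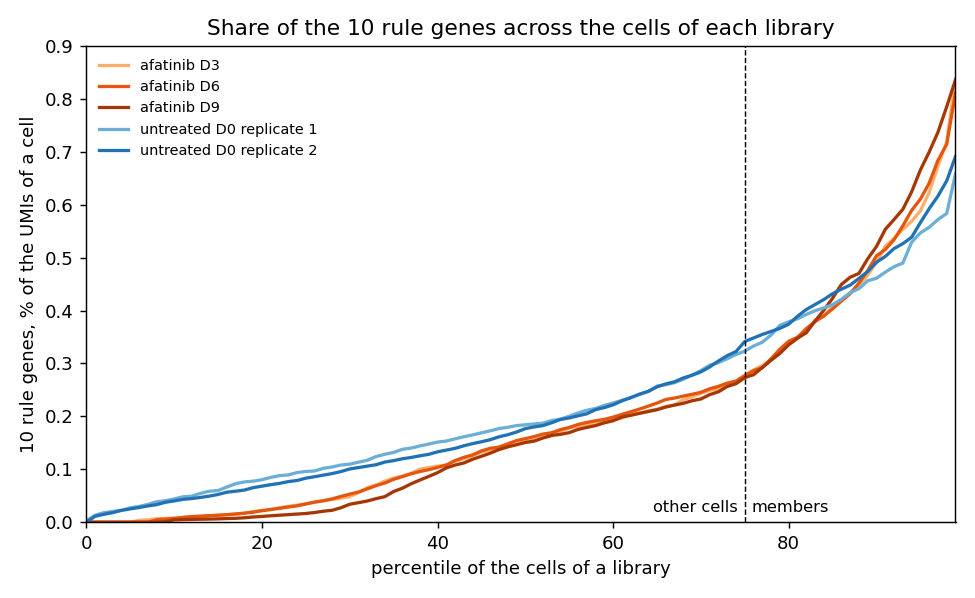
Share of the 10 rule genes in the UMIs of a cell (y axis, percent) by percentile of the cells of a library (x axis), 1 line a library, with the members right of the dashed line. At the 90th percentile the afatinib lines reach 0.491% to 0.521% and the untreated lines 0.461% and 0.491%, whereas at the 10th percentile the afatinib lines lie at 0.0044% to 0.00828% and the untreated lines at 0.0403% and 0.0441%.

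The afatinib libraries were more divided between high and low cells than the untreated ones. The median member held a rule-gene share of 0.444%, 0.440% and 0.467% at D3, D6 and D9, against 0.438% and 0.456% in untreated replicates 1 and 2, and these ranges overlapped. The median other cell held 0.0962%, 0.0936% and 0.0754% at D3, D6 and D9, against 0.142% and 0.125% in the untreated libraries, which did not overlap. No UMI of any rule gene was found in 7.24%, 10.1% and 12.1% of the other cells at D3, D6 and D9, against 0% and 0.251% in the untreated libraries. Untreated replicate 1 was also the deepest library per cell, and the part of depth in these shares was not tested. The members held 67.8%, 59.9% and 64.8% of all rule-gene UMIs of the D3, D6 and D9 libraries, against 51.2% and 56.2% in the untreated libraries. The rule fixes the direction of these values but not their size, and no test is given for them.

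MKI67, a proliferation antigen, TOP2A, which untangles sister chromatids, and CCNB1, the cyclin of CDK1 at mitotic entry, belong to the rule, so their values describe the choice of cells and are no check of the label. With every cell thinned to 5000 UMIs, MKI67 was found in 87.5%, 86.9% and 87.7% of D3, D6 and D9 members and in 84.2% and 88.0% of untreated members, against 35.1% to 46.0% of other cells over the 5 libraries. TOP2A was found in 89.8% to 94.1% of afatinib members and in 95% and 92.5% of untreated members, against 28.5% to 41.4% of other cells. CCNB1 was found in 70.8%, 75.4% and 81.1% of D3, D6 and D9 members and in 82.5% and 81.6% of untreated members. In other cells CCNB1 was found in 14.2%, 16.01% and 16.3% at D3, D6 and D9, against 36.0% and 31.7% in the untreated libraries. The label was checked against PLK1, a kinase of mitotic entry that the rule did not use. It was found in 56.7%, 53.8% and 63.9% of D3, D6 and D9 members and in 60% and 59.8% of untreated members, against 5.85% to 6.80% of the other afatinib cells and 19.3% and 16.2% of the other untreated cells. PLK1 was thus found more often in members than in other cells of all 5 libraries, although part of the members lacked a PLK1 UMI at this depth. Because free RNA in droplets gives UMIs to cells that do not express a gene, the shares in other cells include an unknown background.

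The libraries differed in depth and RNA make-up, and these differences ran with treatment. Library totals lay between 14517579 and 23638242 counts under afatinib and at 22976039 and 28148379 counts untreated. The members held a median of 27673.5, 13381 and 24187 UMIs at D3, D6 and D9, against 53237.5 and 29125 UMIs in untreated replicates 1 and 2. Mitochondrially encoded transcripts took 15.5%, 16.8% and 9.14% of member counts at D3, D6 and D9, against 7.52% and 7.40% in the untreated libraries. Ribosomal protein transcripts averaged 13.5% ± 0.422 of afatinib member counts, against 18.2% ± 0.559 of untreated member counts (SD, n = 3 and 2). None of 6 such measures could pass a test, since an exact two-sided permutation test of 3 against 2 libraries cannot go below p = 0.1 (adjusted p = 0.2 to 0.6 over the 6). Of the markers of other cell types, only COL1A1, a fibroblast collagen, was among the measured genes, at 5.72, 11.4 and 6.59 CPM (counts per 1000000 counts summed over the members of a library) in D3, D6 and D9 members, against 2.16 and 3.55 CPM in untreated members (log2 fold change 1.27 ± 0.40, edgeR adjusted p = 0.0496, kept in 7 of 17 alternative settings). Markers of the epithelial line were present at 4006 to 4916 CPM in afatinib members and at 5792 and 5669 CPM in untreated members. 1 cell barcode of 1421 was shared between D3 and D6, and 0 between all other pairs.

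Among members, afatinib changed many genes, and in the fit of all 5 libraries the genes of mitosis were called less often than other genes, whereas without D9 they fell more often than other genes. Counts were summed over the members of each library and compared with edgeR, and a gene was called at an adjusted p under 0.05 (Benjamini-Hochberg). Of 11993 genes tested, 1120 rose (9.34%) and 1103 fell (9.2%), together 18.5%. The count rests on the untreated libraries and on D9: 320 genes were called without untreated replicate 1, 282 without untreated replicate 2 and 4964 without D9. Between D9 and untreated alone, 4914 genes were called, with D9 assumed to vary like the untreated libraries. With only cells under 10% mitochondrial counts, 1563 were called.

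Of 166 measured genes in 7 lists of mitotic genes, 3 rose and 9 fell among members, below the 9.34% and 9.2% of all genes. Their median log2 fold change was -0.05, against 0.045 over all genes tested. In the other cells of the same libraries 2 of the 166 rose and 52 fell, with a median of -0.34, where 11.7% of 12118 tested genes rose and 9.33% fell. Members were the cells highest in rule genes within each library, and the lowest share among them was smaller in the afatinib libraries than in the untreated ones. The split into members and other cells was thus made by genes of mitosis, and its part in this contrast was not tested. Without untreated replicate 1 or replicate 2, 0 of the 166 passed the edgeR test among members (15 and 9 at an unadjusted p under 0.05), where 2.66% and 2.35% of all genes were called. Without D9, 13 rose and 53 fell, so that 31.9% of the mitotic genes fell, against 22.0% of all genes, and 7.83% rose, against 19.7% of all genes. With D9 as the sole treated library 67 of the 166 were called (40.4%), close to the 40.9% of all genes.

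Of 21 kinases and cyclins of mitotic entry, 0 were called by edgeR among members, where 18.5% of all genes were called. An unadjusted edgeR p under 0.05 was found for 5 of them. Without D9, 2 rose and 6 fell, where 19.7% and 22.0% of all genes did. By DESeq2 0 rose and 2 fell. The rule chose the cells by CDK1, CCNB1 and CCNB2 among others, and its part in these levels was not tested. PLK1 had 194, 197 and 233 CPM in D3, D6 and D9 members, against 198 and 186 CPM in untreated members. In other cells it had 15.7, 19.7 and 18.8 CPM under afatinib, against 44.8 and 47.2 CPM untreated. The members' values overlapped, while those of the other cells did not. AURKA, the kinase that activates PLK1 at centrosomes, had 188, 163 and 178 CPM in afatinib members and 229 and 217 CPM in untreated members, against 16.9, 21.3 and 14.6 CPM in the other afatinib cells and 52.1 and 50.9 CPM in the other untreated cells. Its log2 fold change among members was -0.49 ± 0.17 (SE, edgeR adjusted p = 0.0642). WEE1, which restrains CDK1, had 65.5, 81.3 and 69.0 CPM in afatinib members, against 43.6 and 47.4 CPM in untreated members (log2 fold change 0.51 ± 0.18, edgeR adjusted p = 0.0706). The groups of WEE1 did not overlap, but the change did not pass the test.

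Of the 10 rule genes, which are described without a test, CENPF and UBE2C show how the members' mitotic RNA was made up. CENPF, a kinetochore protein, had 1433, 1534 and 1197 CPM in D3, D6 and D9 members, against 1104 and 1302 CPM in untreated members. UBE2C, the ubiquitin-conjugating enzyme of the anaphase-promoting complex, had 435, 421 and 638 CPM in afatinib members, against 464 and 449 CPM in untreated members. BIRC5, survivin of the chromosomal passenger complex, had 353, 298 and 293 CPM in afatinib members, against 377 and 416 CPM in untreated members. CENPF was highest at D6 and UBE2C at D9, whereas BIRC5 was lower in all 3 afatinib libraries than in both untreated ones. MKI67, CCNB2 and NUSAP1 went the other way and were higher in all 3 afatinib libraries. MKI67 had 444, 480 and 440 CPM in D3, D6 and D9 members, against 360 and 398 CPM in untreated members. The groups of TOP2A, CDK1, CENPF, UBE2C and TPX2 overlapped. CCNB1 had 373, 334 and 453 CPM in afatinib members, against 387 and 407 CPM in untreated members, and its groups overlapped. Summed over the rule genes, the share in members was 4.38, 4.18 and 4.83 times that of other cells at D3, D6 and D9, against 2.95 and 3.30 times in untreated replicates 1 and 2.

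**Figure D2:**
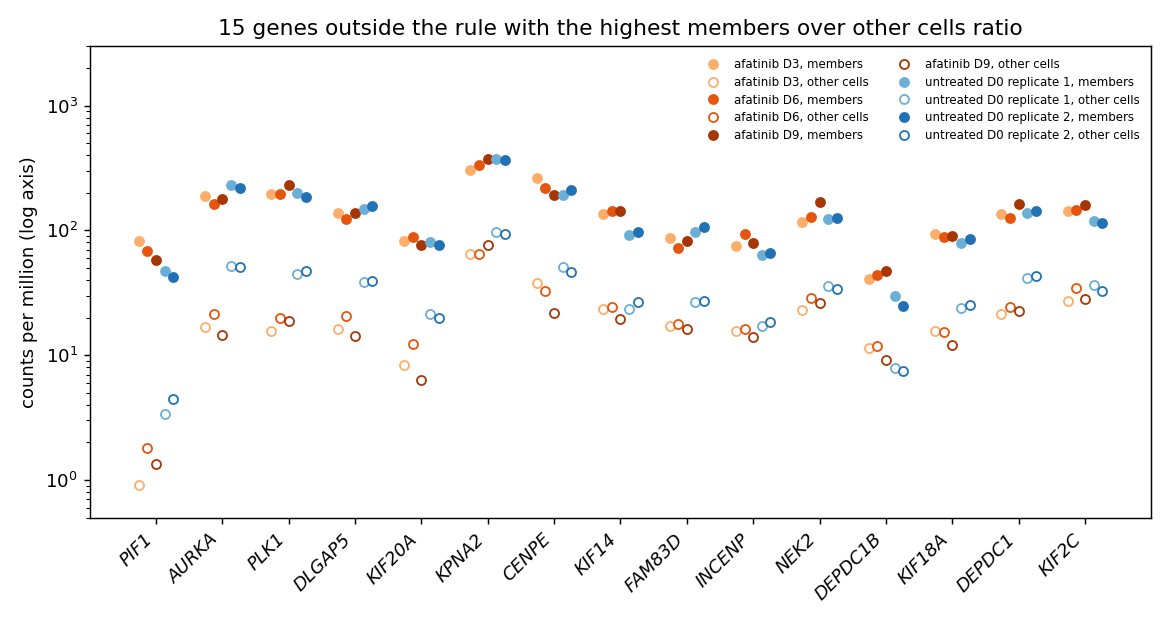
CPM (y axis, log scale) of the 15 genes outside the rule with the largest ratio of members over other cells (x axis), 1 point a library, filled for members and open for other cells. The filled points of PLK1 lie at 186 to 233 CPM and overlap between groups, those of KIF14 at 135 to 143.7 CPM under afatinib lie above 92.5 and 96.9 CPM untreated, and the open afatinib points of PLK1 lie at 15.7 to 19.7 CPM and the open untreated points at 44.8 and 47.2 CPM.

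Genes of the kinetochore, the protein structure that holds chromosomes to the spindle, were mostly not called, with 1 of 39 risen and 3 fallen. CENPC, which links centromeric chromatin to the outer kinetochore, had 35.8, 37.3 and 32.6 CPM in D3, D6 and D9 members, against 15.9 and 16.4 CPM in untreated members, and rose by 0.97 ± 0.18 on the log2 scale (edgeR adjusted p = 0.00672). SPC25, a part of the microtubule-binding NDC80 complex, had 57.0, 50.6 and 63.0 CPM in afatinib members, against 94.997 and 87.6 CPM in untreated members, and its log2 fold change was -0.83 ± 0.17 (edgeR adjusted p = 0.00876). Neither gene overlapped between the groups. ZWINT and KNSTRN, further kinetochore proteins, fell with log2 fold changes of -0.71 and -0.68. In the checkpoint that holds anaphase until all chromosomes are attached, TRIP13, the ATPase that takes the checkpoint complex apart, was the sole gene called of 8. It had 40.5, 27.6 and 45.4 CPM in afatinib members, against 65.2 and 61.2 CPM in untreated members, with a change of -0.89 ± 0.20 on the log2 scale (edgeR adjusted p = 0.016). The checkpoint kinase BUB1 had 100.3, 89.7 and 94.1 CPM in afatinib members and 90.2 and 100.3 CPM in untreated members, which overlapped.

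Of the anaphase-promoting complex and its regulators, 1 of 20 was called, the subunit gene ANAPC13, which fell by 0.86 on the log2 scale. CDC20, the activator of that complex at anaphase, had 353, 312 and 397 CPM in D3, D6 and D9 members, against 446 and 467 CPM in untreated members (log2 fold change -0.52 ± 0.18, edgeR adjusted p = 0.0763). PTTG1, the securin that CDC20 helps destroy, had 650.1, 588 and 941 CPM in afatinib members and 633 and 653 CPM in untreated members. In other cells PTTG1 had 135, 169 and 217 CPM under afatinib, against 351 and 332 CPM untreated. CDC20 did not overlap between the groups of members and PTTG1 did. Of 32 genes of spindle motors and microtubule proteins, NUMA1, which anchors microtubules at the spindle poles, rose by 0.70 ± 0.18 and the tubulin gene TUBB6 differed by -0.81 ± 0.18 on the log2 scale (edgeR adjusted p = 0.023 and 0.0142). The motor KIF20A of the central spindle had 82.9, 88.1 and 76.2 CPM in afatinib members, against 81.4 and 77.0 CPM in untreated members, and 8.37, 12.4 and 6.31 CPM in the other afatinib cells, against 21.2 and 19.99 CPM in the other untreated cells.

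Of 18 genes of cytokinesis and the chromosomal passenger complex, CIT rose, CEP55 and CHMP4B fell, and 15 were not called. CIT, citron kinase of the midbody, had 66.6, 78.6 and 61.3 CPM in D3, D6 and D9 members, against 39.5 and 34.6 CPM in untreated members (log2 fold change 0.74 ± 0.19, edgeR adjusted p = 0.023). CEP55, which recruits the abscission machinery to the midbody, had 112, 105 and 79.4 CPM in afatinib members, against 142 and 144.3 CPM in untreated members (log2 fold change -0.69 ± 0.19, edgeR adjusted p = 0.029). Both genes act at the midbody, and neither gene overlapped between groups. The calls of CEP55 and CHMP4B were kept in 9 and 6 of 17 alternative settings, and that of CIT in 11. Of 28 genes of chromosome condensation and cohesion only the condensin gene NCAPG was called, with a log2 fold change of -0.56 that was kept in 8 of 17 settings.

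By the lowest ratio of members over other cells in the 5 libraries, PIF1, a DNA helicase, ranked first outside the rule. It was more concentrated in members under afatinib. It had 82.1, 68.0 and 57.6 CPM in D3, D6 and D9 members, against 47.2 and 42.5 CPM in untreated members, 0.47 ± 0.19 on the log2 scale, which missed the edgeR threshold (adjusted p = 0.109). In other cells it had 0.918, 1.82 and 1.34 CPM under afatinib, against 3.36 and 4.44 CPM untreated. These levels lie near the floor, so the ratios are uncertain. On the log2 scale the ratio of members over other cells was 6.41, 5.19 and 5.39 at D3, D6 and D9, against 3.80 and 3.25 in untreated replicates 1 and 2. For KIF14, a motor of cytokinesis, members had 135, 143.7 and 143.4 CPM under afatinib, against 92.5 and 96.9 CPM untreated, and its other cells had 23.3, 24.2 and 19.3 CPM under afatinib, against 23.6 and 26.7 CPM untreated. KIF14 was thus higher in afatinib members without overlap, but the change did not pass the edgeR test (adjusted p = 0.097).

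Among 15 genes of the factors that switch on cell cycle genes, E2F2, LIN54 and FOXM1 rose, E2F5 fell and 11 were not called. With either untreated replicate left out 1 rose and 0 fell. E2F2, an activating factor of the E2F family, had 43.3, 64.1 and 39.2 CPM in D3, D6 and D9 members, against 10.6 and 12.6 CPM in untreated members, and rose by 1.92 ± 0.26 on the log2 scale (edgeR adjusted p = 0.00188, 0.031 at the highest over 17 settings). The other cells of the same libraries had 57.7, 63.3 and 42.5 CPM under afatinib, against 19.5 and 22.8 CPM untreated. E2F2 was thus lower in members than in other cells of both untreated libraries, by log2 ratios of -0.87 and -0.86, and nearer to them under afatinib, at -0.41, 0.02 and -0.12. FOXM1, the activator of late mitotic genes, had 112, 117 and 103 CPM in afatinib members, against 66.3 and 70.1 CPM in untreated members, without overlap. Its log2 fold change of 0.55 ± 0.16 passed the edgeR test narrowly (adjusted p = 0.0436, and 0.000563 to 0.341 over the other settings), and the call was kept in 7 of 17. MYBL2, the gene of B-MYB, had 139, 142 and 116 CPM in afatinib members and 114 and 132 CPM in untreated members, which overlapped.

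**Figure D3:**
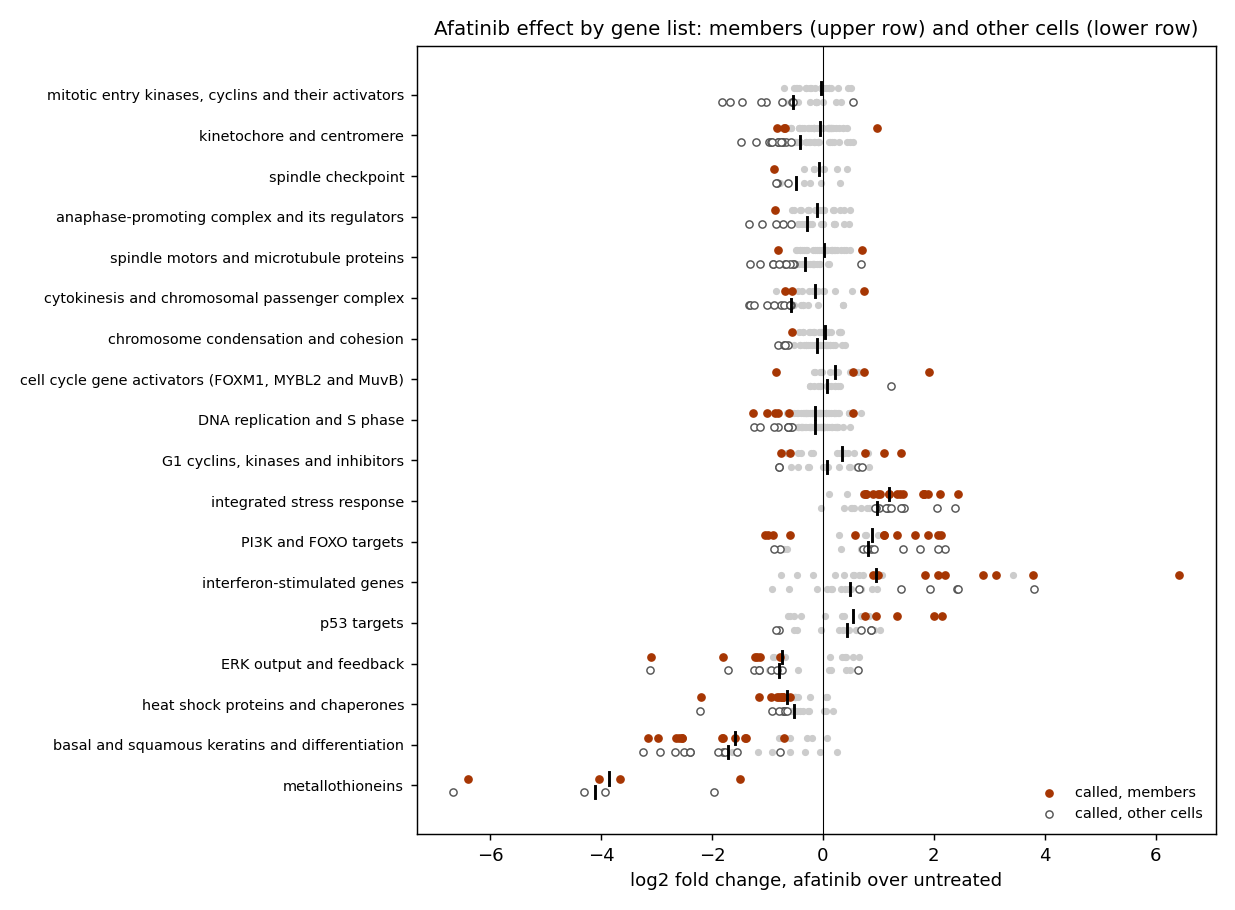
Log2 fold change of afatinib over untreated (x axis) for the genes of 18 lists (y axis), with members in the upper row of each list and other cells in the lower row. Coloured and open points are called genes, grey points are genes not called, and black bars are list medians, which for the mitotic entry kinases stand at -0.04 in members and -0.54 in other cells.

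The members held less S phase RNA than the other cells of their library, in treated and untreated libraries alike. Genes of DNA replication took 0.371%, 0.357% and 0.390% of member counts at D3, D6 and D9, against 0.383% and 0.382% in untreated members. In other cells they took 0.511%, 0.479% and 0.549% under afatinib and 0.513% and 0.526% untreated. Members that were also in the top 25% of their library by this share made up 5.00%, 5.51% and 3.86% of D3, D6 and D9 members, against 2.50% and 2.26% of untreated members (exact permutation test, p = 0.1, the smallest that 3 against 2 libraries allow). These are 6, 13 and 11 cells, against 3 and 6. Of 55 S phase genes, 1 rose and 5 fell among members, 4 and 15 without D9 and 0 and 0 with either untreated replicate left out. POLE2, a subunit of the leading-strand polymerase, had 6.997, 4.84 and 3.98 CPM in afatinib members, against 12.6 and 9.89 CPM in untreated members (log2 fold change -1.25 ± 0.29, edgeR adjusted p = 0.0167). RFC3, of the clamp loader, had 77.0, 75.7 and 43.5 CPM in afatinib members, against 108 and 129 CPM in untreated members (log2 fold change -1.01 ± 0.24, edgeR adjusted p = 0.0179). In both genes D9 was the lowest library, and CHAF1A, which places histones on new DNA, was the gene that rose, by 0.55.

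Of 19 genes of the G1 phase, 3 rose and 2 fell among members. Without untreated replicate 1, 1 rose and 0 fell, without replicate 2 none passed (5 at an unadjusted edgeR p under 0.05), and without D9, 5 rose and 5 fell. CDKN2C, the p18 inhibitor of CDK4 and CDK6, had 53.6, 65.1 and 88.1 CPM in D3, D6 and D9 members, against 24.2 and 22.6 CPM in untreated members. It rose by 1.41 ± 0.23 on the log2 scale (edgeR adjusted p = 0.00396, and 0.0689 without untreated replicate 2, the highest over 17 settings). In other cells CDKN2C had 21.4, 22.7 and 26.4 CPM under afatinib, against 14.2 and 12.4 CPM untreated, so members were the higher cells in all 5 libraries. CCNG2, a cyclin of cells that leave the cycle, had 34.8, 37.7 and 26.5 CPM in afatinib members, against 13.1 and 14.5 CPM in untreated members (log2 fold change 1.1001 ± 0.21, edgeR adjusted p = 0.00826). CDK6 and BTG1, an antiproliferative gene, fell with log2 fold changes of -0.76 and -0.59. CDKN1A, the p21 inhibitor, had 14.2, 8.71 and 13.3 CPM in afatinib members and 14.1 and 14.6 CPM in untreated members, and was not called. XRCC2 rose by 0.76 and was the only gene called of 22 of homologous recombination, in 8 of 17 settings. Of 17 histone genes 0 were called by edgeR. The core histone gene H4C3 had 1591, 930.1 and 364 CPM in D3, D6 and D9 members, against 1850.2 and 1639.6 CPM in untreated members.

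Outside the cell cycle, afatinib members held less metallothionein and squamous RNA and more RNA of the integrated stress response, while heat shock transcripts fell. The other cells of the same libraries moved the same way. In them 4 of 4 metallothioneins, 11 of 18 squamous genes and 7 of 20 heat shock genes fell, and 12 of 20 stress genes rose. Of the largest rises and falls named below, only FST, ZNF750 and SESN2 had a called difference between members and other cells. These genes lay outside the limit on untreated levels that is described further below. The 12 largest rises and 12 largest falls were taken among called genes whose mean was 20 CPM or more and whose groups did not overlap. The falls were led by metallothioneins, small metal-binding proteins, of which 4 of 4 fell. MT1E had 46.9, 14.3 and 8.43 CPM in D3, D6 and D9 members, against 1851 and 1646 CPM in untreated members, and MT2A had 385, 289 and 96.5 CPM, against 3934 and 3706 CPM. The log2 fold changes were -6.41 ± 0.58 and -4.05 ± 0.46 (edgeR adjusted p = 0.000273 and 0.000888), and the call held in all 17 settings for both. Metallothionein genes are near-identical in sequence, so counts of single members are uncertain. The other falls were ATP6V0D2, FST, CST6, MT1X, RGS2, PPP1R14B-AS1, KLK6, FOSL1, C5orf46 and CAV1. CAV1, the coat protein of caveolae, had 85.9, 58.1 and 65.4 CPM in afatinib members, against 508 and 509 CPM in untreated members (log2 fold change -3.02 ± 0.20, edgeR adjusted p = 7.44e-05).

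The rises were OASL, AKR1C2, NR4A2, AKR1C1, SELENOP, SLC7A11, NRARP, DUSP1, ZNF750, ALCAM, TRPV6 and SESN2. SELENOP, the selenium transport protein, had 43.7, 51.8 and 53.2 CPM in D3, D6 and D9 members, against 7.46 and 8.49 CPM in untreated members (log2 fold change 2.48 ± 0.21, edgeR adjusted p = 0.000208). SLC7A11, the cystine importer, had 31.6, 35.3 and 32.5 CPM in afatinib members, against 6.30 and 4.82 CPM in untreated members (2.43 ± 0.22, edgeR adjusted p = 0.000274). ALCAM, an adhesion protein, had 136, 178 and 140.4 CPM in afatinib members, against 28.0 and 33.9 CPM in untreated members (2.14 ± 0.21, edgeR adjusted p = 0.000406). All 3 genes held their call in 17 of 17 settings. The value of OASL, an interferon-induced gene, rested on few cells: 1 member held 70.8%, 54.2% and 32.6% of its counts at D3, D6 and D9, against 88.6% and 35.7% in untreated replicates 1 and 2. OASL had 15.3, 66.0 and 84.6 CPM in afatinib members, against 5.80 and 1.78 CPM in untreated members. Without the top cell of each library it had 4.48, 30.4 and 57.3 CPM, against 0.670 and 1.15 CPM. AKR1C1 and AKR1C2 are near-identical copies whose reads may be split between them.

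**Figure D4:**
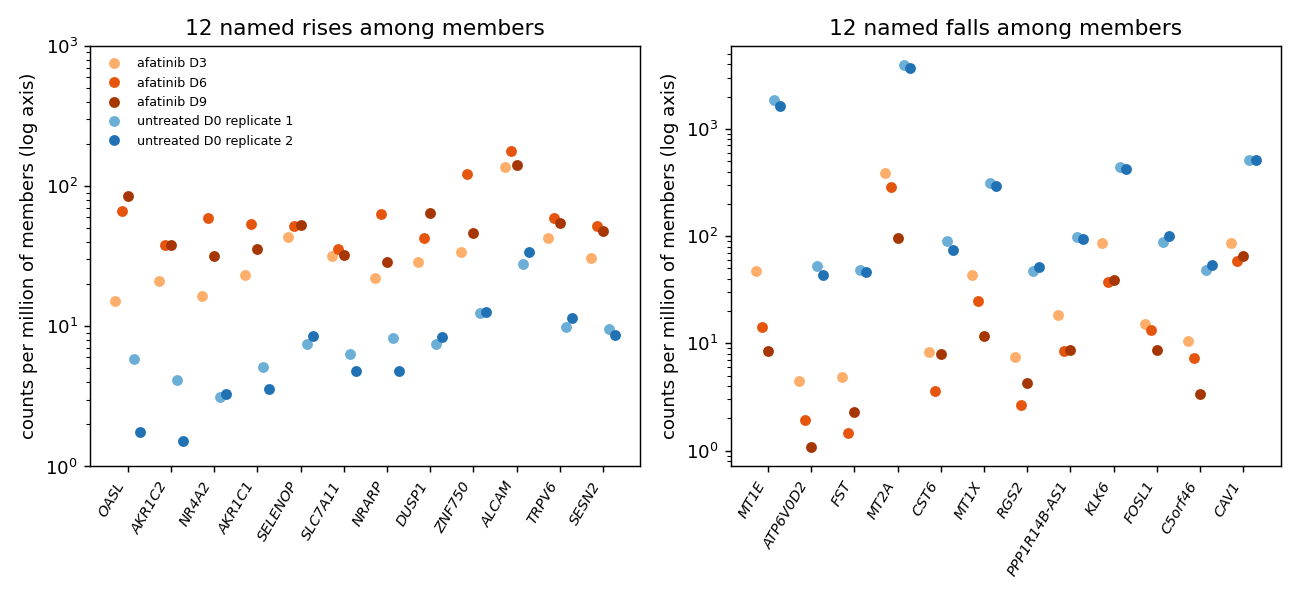
CPM (y axis, log scale) in members for the 12 named rises (left) and the 12 named falls (right), 1 point a library. Each gene's 3 afatinib points lie on 1 side of both untreated points, from SELENOP at 43.7 to 53.2 CPM against 7.46 and 8.49 CPM, to MT1E at 8.43 to 46.9 CPM against 1851 and 1646 CPM.

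The lists outside the cycle were read against the 9.34% of genes that rose and the 9.2% that fell. Of 20 genes of the integrated stress response, the programme that ATF4 drives when amino acids run short, 17 rose and 0 fell, with a median log2 fold change of 1.18. ATF5, HSPA5 and DNAJB9 were not called. Their number rests on both untreated libraries, since 3 were called with either one left out. PHGDH, the entry enzyme of serine synthesis, had 713, 632 and 917 CPM in D3, D6 and D9 members, against 273 and 265 CPM in untreated members (log2 fold change 1.33 ± 0.22, edgeR adjusted p = 0.00413). STC2, a stress-induced glycoprotein, had 83.8, 73.8 and 96.4 CPM in afatinib members, against 21.2 and 21.7 CPM in untreated members (1.83 ± 0.18, edgeR adjusted p = 0.000495). DDIT3, the CHOP factor, had 45.4, 71.1 and 72.5 CPM in afatinib members, against 21.9 and 21.6 CPM in untreated members (1.39 ± 0.24, edgeR adjusted p = 0.00467). None of the 3 overlapped between groups, and afatinib members were higher in each.

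Of 16 targets of PI3K and FOXO signalling, 8 rose and 4 fell among members, and 3 rose and 0 fell with either untreated replicate left out. TSC22D3, a FOXO-responsive gene, had 34.3, 28.8 and 45.8 CPM in D3, D6 and D9 members, against 7.79 and 7.73 CPM in untreated members (log2 fold change 2.08 ± 0.24, edgeR adjusted p = 0.000917). Of 16 genes of ERK output and feedback, 0 rose and 6 fell. Without untreated replicates 1 and 2 in turn 3 and 2 fell, and without D9, 4 rose and 8 fell. FOSL1, an AP-1 subunit that ERK stabilizes, had 15.3, 13.3 and 8.73 CPM in afatinib members, against 88.7 and 101 CPM in untreated members (-3.10 ± 0.22, edgeR adjusted p = 9.76e-05). SPRY2, a feedback inhibitor, had 52.6, 58.3 and 37.5 CPM in afatinib members, against 107 and 95.7 CPM in untreated members (-1.19 ± 0.21, edgeR adjusted p = 0.00484). Both FOSL1 and SPRY2 were lowest at D9. Of 8 genes of ERBB receptors and ligands, 2 rose and 2 fell, and 0 rose and 1 fell with either untreated replicate left out. The receptors ERBB2 and ERBB3 rose by 0.99 and 0.77, and the ligands AREG and EPGN had log2 fold changes of -4.43 and -3.73. EGFR itself had 809, 827 and 489.9 CPM in afatinib members and 776 and 779 CPM in untreated members, and was not called. IGFBP2, a binding protein of insulin-like growth factors, had 231, 206 and 269 CPM in afatinib members, against 124 and 121 CPM in untreated members (0.79 ± 0.18, edgeR adjusted p = 0.0164).

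Of 17 genes of basal and squamous keratinocytes 12 fell and 0 rose, such as the kallikrein protease gene KLK6, which had 86.9, 37.3 and 38.8 CPM in D3, D6 and D9 members, against 441 and 421 CPM in untreated members. The 12 falls became 6 without untreated replicate 1 and 4 without replicate 2. Of 20 heat shock proteins and chaperones 11 fell and 0 rose, 1 each without untreated replicate 1 and without untreated replicate 2. HSPB1, a small heat shock protein, had 82.5, 38.2 and 44.3 CPM in afatinib members, against 207 and 246 CPM in untreated members (log2 fold change -2.20 ± 0.28, edgeR adjusted p = 0.00128). Of 20 interferon-stimulated genes 9 rose, among them OASL and IFIT1, and of 14 p53 targets 5 rose. Without untreated replicate 1 the edgeR test called 3 interferon-stimulated genes and 0 p53 targets (12 and 6 at an unadjusted p under 0.05), and without replicate 2 it called 0 of either (10 and 4 at an unadjusted p under 0.05). IFIT1 had 9.54, 27.8 and 34.5 CPM in afatinib members, against 4.31 and 1.78 CPM in untreated members, and 1 cell held 21.4% to 53.9% of its counts in each library. Of 13 mitochondrially encoded genes 2 rose, MT-ND1 by 1.47 and MT-ND5 by 1.23, with the highest levels at D3 and D6. By edgeR 12 of the 13 rose without D9, and 0 rose with D3, D6 or either untreated replicate left out (2 or 3 at an unadjusted p under 0.05) or among cells under 10% mitochondrial counts, where 1 fell.

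Whether afatinib acted otherwise in members than in other cells was read from the difference between the 2 effects, from a fit with both sums of every library. Of 12090 genes, 227 passed the edgeR test (1.88%), 155 with a higher effect in members (1.28%) and 72 with a lower one (0.596%). The count was 555 without D3, 220 without D6, 61 without D9, 93 without untreated replicate 1 and 110 without untreated replicate 2. Of the 166 mitotic genes 55 were among the higher ones and 0 among the lower ones. The gap in rule genes was also wider under afatinib, and its part in this was not tested. No p is given for the mitotic genes or for other genes that stood apart in untreated members. PLK1 differed by 1.47, KIF20A by 1.29, AURKA by 1.23 and PTTG1 by 1.15 on the log2 scale.

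A p is given for genes outside the cell cycle lists that members and other cells held at like levels in both untreated libraries (log2 ratios within 0.5 of 0), a limit chosen after the values were seen. Of 159 called differences outside those lists, 100 met it, 38 with the higher and 62 with the lower effect in members. The share of all genes that met the limit was not counted. Over all genes, the 72 lower calls became 6 by DESeq2, 9 with thinned cells, 10 without D9 and 343 without D3. The 155 higher calls became 40, 27, 51 and 212 in the same settings. Among the differences that met the limit are 8 of the genes named for a called difference, 7 with the lower effect in members. Over all genes tested, the main fit called more higher effects (155) than lower ones (72). SESN2 and SNAPC1, with a higher effect in members, lay just outside, at untreated log2 ratios of -0.21 and -0.53 and of -0.54 and -0.11. CAMK2N1, an inhibitor of the calcium-dependent kinase CaMKII, had 56.8, 29.3 and 34.6 CPM in D3, D6 and D9 members, against 218 and 203 CPM in untreated members. Its other cells had 83.8, 44.1 and 61.2 CPM under afatinib, against 187 and 192 CPM untreated. The effects differed by -0.81 ± 0.10 (edgeR adjusted p = 6.99e-06). With cells thinned to 5000 UMIs the difference was -0.43, the highest adjusted p over 17 settings (0.531). KMO, an enzyme of tryptophan breakdown, had 7.63, 3.63 and 5.06 CPM in afatinib members, against 40.3 and 34.7 CPM in untreated members. Its other cells had 17.8, 10.3 and 11.6 CPM under afatinib, against 41.2 and 42.7 CPM untreated, a difference of -1.09 ± 0.20 (edgeR adjusted p = 0.00116). For KMO the difference was -0.29 with thinned cells (edgeR adjusted p = 0.936) and -0.74 in the top 10% of cells (0.271), where it did not pass.

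SVIP, an inhibitor of protein degradation at the endoplasmic reticulum, was lower under afatinib in members, whereas its other cells changed little. It had 31.2, 29.0 and 24.98 CPM in D3, D6 and D9 members, against 57.4 and 47.8 CPM in untreated members. Its other cells had 50.3, 45.9 and 49.5 CPM under afatinib, against 55.7 and 52.3 CPM untreated. The difference was -0.74 ± 0.13 (edgeR adjusted p = 0.000649, and 0.52 at the highest, with thinned cells). OPN3, an opsin that KMO overlaps on chromosome 1, had 24.0, 21.0 and 22.1 CPM in afatinib members, against 30.3 and 26.5 CPM in untreated members, and 27.8, 30.1 and 33.5 CPM in the other afatinib cells, against 23.5 and 21.4 CPM in the other untreated cells. OPN3 was thus lower in afatinib members and higher in the other afatinib cells, but neither change passed its own edgeR test (adjusted p = 0.0764 and 0.183). The difference between them was -0.79 ± 0.16 (edgeR adjusted p = 0.00318, kept in 12 of 17 settings). The genes KMO and OPN3 share a stretch of chromosome 1 (241532378 to 241595642 and 241593124 to 241640369). Whether this overlap has a part in their counts was not tested.

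VGF, a secreted neuropeptide precursor, had 17.2, 13.1 and 18.4 CPM in D3, D6 and D9 members, against 30.5 and 28.0 CPM in untreated members, and 26.9, 26.7 and 41.6 CPM in the other afatinib cells, against 33.5 and 33.1 CPM in the other untreated cells. The difference was -0.79 ± 0.16 (edgeR adjusted p = 0.00412, kept in 13 of 17 settings). The other cells of VGF overlapped between treated and untreated libraries and its members did not. LINC01186, a long non-coding RNA, and ZNF704, a zinc finger gene, differed by -0.81 ± 0.20 and -0.73 ± 0.17 (edgeR adjusted p = 0.022 and 0.0136), and their calls were kept in 7 and 9 of 17 settings. MT1F was the gene that fell less in members, with 29.7, 23.0 and 28.8 CPM in afatinib members, against 67.1 and 71.0 CPM in untreated members, and 18.2, 17.7 and 17.1 CPM in the other afatinib cells, against 60.7 and 65.1 CPM in the other untreated cells. Its difference was 0.50 ± 0.13 (edgeR adjusted p = 0.0319, kept in 8 of 17 settings).

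**Figure D5:**
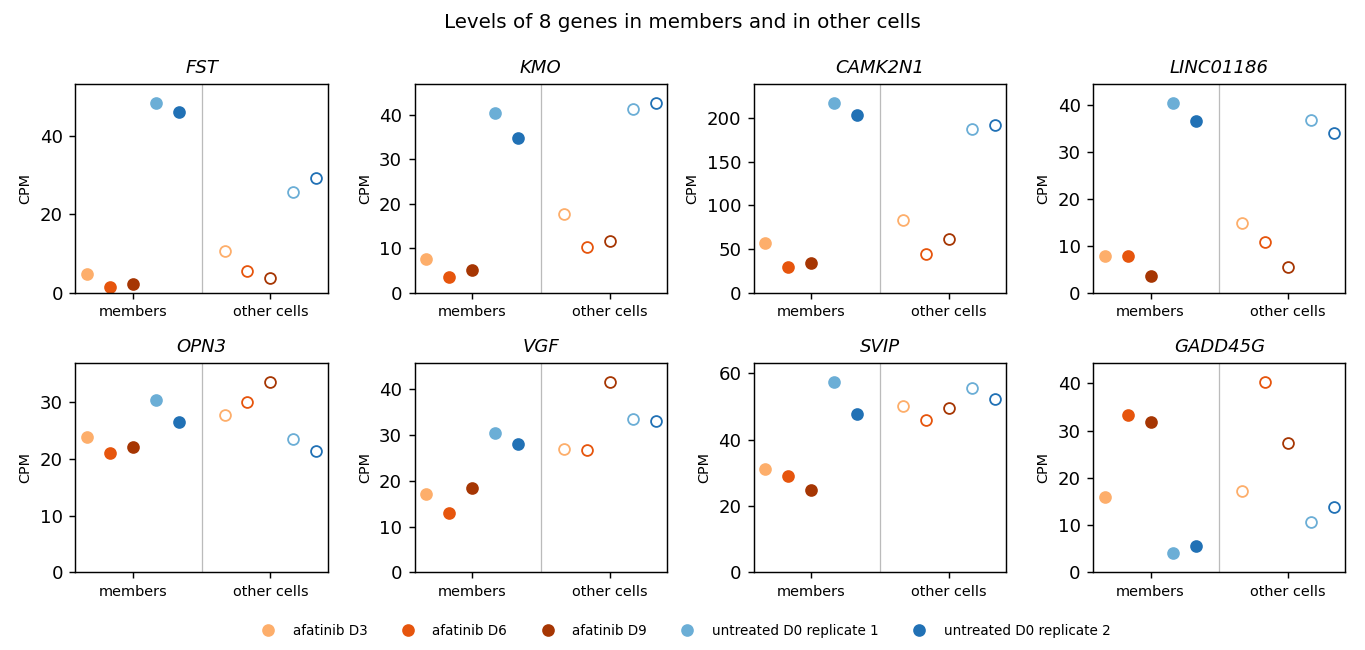
CPM (y axis) of 8 genes in members (filled points) and other cells (open points), 1 point a library. In the KMO panel the afatinib members lie at 3.63 to 7.63 CPM and the other afatinib cells at 10.3 to 17.8 CPM, while the untreated points of both lie between 34.7 and 42.7 CPM.

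FST and GADD45G are given without a p, since members and other cells already stood apart in untreated libraries. FST, follistatin, which binds activin, had 4.88, 1.45 and 2.30 CPM in D3, D6 and D9 members, against 48.4 and 46.2 CPM in untreated members. In other cells it had 10.6, 5.63 and 3.80 CPM under afatinib, against 25.6 and 29.3 CPM untreated. Members were thus above other cells in both untreated libraries and below them in all 3 afatinib libraries. GADD45G, a stress gene that inhibits CDK1, had 15.9, 33.4 and 31.9 CPM in afatinib members, against 4.14 and 5.58 CPM in untreated members, and 17.2, 40.2 and 27.3 CPM in the other afatinib cells, against 10.6 and 13.9 CPM in the other untreated cells. Members were below other cells in 4 of 5 libraries and above them at D9. Whether depth, freezing or the mitochondrial share has a part in any of these differences was not tested.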

How the data were processed

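Single-cell transcripts of 5 libraries were analysed. Cell Ranger 6.1.2 and the GRCh38 build are credited to the submitters' processing notes. The authors removed cells under 5000 UMIs, outliers of mitochondrial share and putative doublets, so no doublet caller was run here. They adjusted counts for the batch of the day 0 captures with ComBat-seq, and the deposited values are therefore expected counts, all whole, for 12474 genes and 4101 cells. The adjustment can narrow the spread between the untreated libraries, and with it lower the p-values, and the test had been planned for plain UMI counts. The other deposited columns hold cell names, gene identifiers and symbols.

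Counts were summed over the members and over the other cells of each library and tested with edgeR 4.0.16 (quasi-likelihood, TMM, filterByExpr, limma 3.58.1, R 4.3.3), with 3 residual degrees of freedom and a biological coefficient of variation of 0.172 among members. The 10 rule genes stayed in the totals and out of the tests. The difference of effects was the interaction of treatment and membership in a fit with library as a factor (coefficient of variation 0.0492). Standard errors are the log2 fold change over the root of the F statistic. CPM are counts per 1000000 of the summed total, and the fits were tested on simulated data. Single measures were compared by exact permutation. Alternatives were DESeq2 1.42.0, voom, other normalization, filters, member choices and each library left out. Leaving out D3 and D6 together, and leaving out the cell with most counts of each gene, were added after seeing the data.

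Named were the 12 largest rises and falls (called, mean of at least 20 CPM, no overlap), the 8 largest differences in each direction with the same minimum, the 15 genes highest in members, the rule genes and markers, up to 4 called genes a list, and EGFR, ERBB2 and IGFBP2. Other cell cycle genes were named to describe their lists, and FOXM1, CDC20, WEE1, BUB1, H4C3, CDKN1A, MYBL2, CDK6, CHAF1A and DDIT3 were picked after their values were seen. The members and lists were chosen with earlier results of these data known. Standard errors and SDs include the spread between libraries.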

Additional observations from a re-analysis of the deposited data

Results flagged for a closer look

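The afatinib effect differed between members and other cells, by the edgeR test of the interaction at an adjusted p under 0.05, for 227 genes. Among the genes named in the text, the effect was lower in members for FST (-1.93 on the log2 scale), KMO (-1.09), CAMK2N1 (-0.81), LINC01186 (-0.81), OPN3 (-0.79), VGF (-0.79), SVIP (-0.74), ZNF704 (-0.73) and ZNF750 (-0.69). It was higher in members for the mitotic genes PIF1 (2.10), PLK1 (1.47), KIF20A (1.29), AURKA (1.23), TROAP (1.19), PTTG1 (1.15), KNSTRN (0.84) and CEP55 (0.66). These move with the genes that chose the members, so the test cannot tell an afatinib effect on them from the choice of cells. The test is likewise no support for FST, ZNF750, GADD45G, E2F2 and CDKN2C, which stood apart in untreated libraries. For ZNF750 the untreated log2 ratios of members over other cells were 1.40 and 1.15, and its call was kept in 6 of 17 settings. The effect was also higher in members for CDKN2C (0.74) and E2F2 (0.71) of the cell cycle lists, and for IFIT1 (2.61), SNAPC1 (1.58), GADD45G (1.30), SESN2 (0.74) and MT1F (0.50) outside them. The value of SNAPC1 came from few cells, since 1 member held 64.4% of its D3 counts, and without that cell D3 members had 19.4 CPM, against 53.6 CPM with it. For IFIT1 the difference no longer passed with the top cell of each library left out. Groups of 2 and 3 libraries are too small to single out a library as far from the others.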

How the results depend on the processing

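Of 87 genes named for a change among members, 0 turned their direction in 1471 gene-by-setting results, 1247 kept the call and 224 lost it, 45 of them without untreated replicate 1 and 49 without replicate 2. Of 33 genes named for a difference, 0 turned, 455 of 561 results kept the call and 106 lost it, 23 of them with cells thinned to 5000 UMIs. Both sets of genes were picked by their call in the main fit on these same libraries, so turns were unlikely from the start. The count of genes called among members ran from 282 to 4964 with 1 library left out, and was 883 with thinned cells and 4914 with D9 as the sole treated library. The count of differences ran from 61 to 555 with 1 library left out, and was 46 by DESeq2, 36 with thinned cells, 90 by the mean CPM of cells and 570 with D9 as the sole treated library. The cause of these shifts was not tested. Rises made up 50.4% of the calls among members, 68.0% by the mean CPM of cells (where the median of all genes was 0.163), and 32.2% and 31.9% without untreated replicate 1 or 2. The S phase share of members differed by -0.010 percentage points, by -0.0354 with the common threshold and by -0.0472 in the top 10% of cells. Median UMIs have no value after thinning, and 8 results of POLE2, EPGN, TP53INP1, BBC3, MT-ND1 and MT-ND5 could not be fitted. No paired analysis was possible because the afatinib labels carry no replicate numbers. The depth limits low genes, since D6 members held 4133939 counts in all.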
